A study of Homo sapiens with 9 samples.

Results

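The regions described here are the stretches of accessible chromatin around the genes SOX11 and SOX4 in SK-N-BE(2)c, a cell line grown from neuroblastoma, a childhood tumour of the sympathetic nervous system. They were the regions of the deposited count table whose centre lay inside the GRCh38 span of either gene or within 200 kb of either end. This gave 43 of 148797 regions, 25 at SOX11 on chromosome 2 and 18 at SOX4 on chromosome 6. The assay was ATAC-seq, which reads accessibility from where the transposase Tn5 inserts adapters into open DNA. The cells were transfected with 100 nM antisense oligonucleotide by lipofectamine 2000 and collected after 48 h. The 3 groups of 3 libraries received ASO2, ASO10 or the negative control oligonucleotide NCA, and ASO2 and ASO10 both target the long noncoding RNA NESPR. All 9 libraries thus share the transfection, and no untransfected library was analysed here. SK-N-BE(2)c is a single cell line, and nothing in the labels says that the 3 libraries of a group came from separate cultures, so p-values measure only the spread between libraries.

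SOX11 and SOX4 encode the main members of the SOXC group of high-mobility-group transcription factors. They bind related DNA sequences, are active in progenitors of neurons and of the sympathetic nervous system, and are known to promote genes of neuronal differentiation such as TUBB3 and MAP2. SOX11 is known as a factor of the adrenergic state of neuroblastoma. Marker genes of the labelled cell type and of others were looked up for promoter regions, defined as regions within 1 kb of a gene start. Of 7 adrenergic neuroblastoma markers 6 had such a region, TH being the exception. Of 4 mesenchymal markers 3 had one, PRRX1 being the exception, and of 6 markers of blood, epithelium, liver and endothelium only PECAM1 had one. Of all 20056 protein-coding genes 14124 had one. Since most genes have such a region, these counts cannot tell the adrenergic from the mesenchymal state. The level of NESPR RNA, which would check the knockdown, cannot be read from accessibility.

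Library totals ran from 7293565 to 10948569 counts. Levels are given in CPM, that is, counts divided by each library's effective size from edgeR's TMM factors, and differences as log2 fold changes from edgeR's quasi-likelihood test, with p-values adjusted by the Benjamini-Hochberg method over all 119417 regions that passed the filter on low counts. Of the 43 regions 31 passed, 18 at SOX11 and 13 at SOX4. The threshold for a call was an adjusted p of 0.05. A higher level can mean that more cells have the region open or that it is more open in each cell, and these cannot be told apart here.

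The promoter sequence is shown for SOX4 because its promoter region held the smallest adjusted p of the 31 tested regions when ASO10 was compared with NCA. The 250 bases before the gene start, from RefSeq on GRCh38.p14, lie at chr6:21593501-21593750 on the plus strand, wholly inside that region. Capitals mark CAGCTG, an E-box, and CCAAT, which reads ATTGG on the other strand.
SOX4: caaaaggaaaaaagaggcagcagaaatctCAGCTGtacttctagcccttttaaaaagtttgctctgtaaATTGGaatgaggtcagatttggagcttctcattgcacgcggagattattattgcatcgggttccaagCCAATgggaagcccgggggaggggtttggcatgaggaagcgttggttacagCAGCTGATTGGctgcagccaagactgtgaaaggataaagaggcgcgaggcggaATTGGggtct

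The sequence had a GC content of 48.8%, against a median of 58.0% over 27305 RefSeq promoters of the same length. Counting back from the gene start, CAGCTG began at bases 221 and 63, and CCAAT or its reverse at bases 181, 114, 57 and 10, so that the pair at 63 and 57 is adjacent without overlap. CAGCTG was present in 13.8% and CCAAT in 33.0% of all these promoters. No match on either strand was found for ACAAAG, a SOX motif held by 13.7% of promoters, or for ACAATG, another SOX motif held by 9.45%. The GATA motif AGATAA (9.37% of promoters), the TATA box TATAAA (11.1%), the homeodomain motif TAATTA (4.49%) and the GC box GGGCGG (42.3%) had no match either, which says only that these letters are not in this window. The motifs were chosen after this sequence had been seen, and the CAGCTG and CCAAT matches had been noticed by then, so their presence is a description only.

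The SOX11 window runs from chr2:5492384 to 5901385 around the gene at chr2:5692384-5701385. It held 1 promoter region, 1 region in the gene body and 23 distal regions, 7 before and 16 after the gene. The SOX4 window runs from chr6:21393751 to 21798619 around the gene at chr6:21593751-21598619, and held 1 promoter region, 1 gene-body region and 16 distal regions, 6 before and 10 after. Of the SOX11 regions 4 lay in the long noncoding RNA gene LINC01248, and of the SOX4 regions 7 lay in CASC15, a long noncoding RNA gene next to SOX4. SOX11 had 6.11 and SOX4 4.45 regions per 100 kb, against a median of 6.76 for the same window around 20037 protein-coding genes. Both windows were therefore poorer in regions than the median gene, SOX11 at the 42.8 and SOX4 at the 28.1 percentile.

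Per length, the SOX4 promoter region was the more accessible of the pair. Averaged over the 9 libraries it stood at 11.7 CPM per kb and the SOX11 promoter region at 6.98 CPM per kb. Among the strongest promoter regions of 14124 protein-coding genes, with a median of 13.7 CPM per kb, these levels were at the 40.6 and 16.6 percentiles. The highest level per length at either locus was 5.5 kb before the SOX4 start (chr6:21586999-21589454), at 11.97 CPM per kb and the 88.8 percentile of 106237 tested regions away from promoters. The 16 tested distal SOX11 regions had a median of 4.47 CPM per kb in NCA, against 6.03 for 6990 such regions on chromosome 2. The 11 at SOX4 had 4.56, against 5.91 for 4054 on chromosome 6. DNA copy number, which can scale such levels, was not analysed here.

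**Figure D1:**
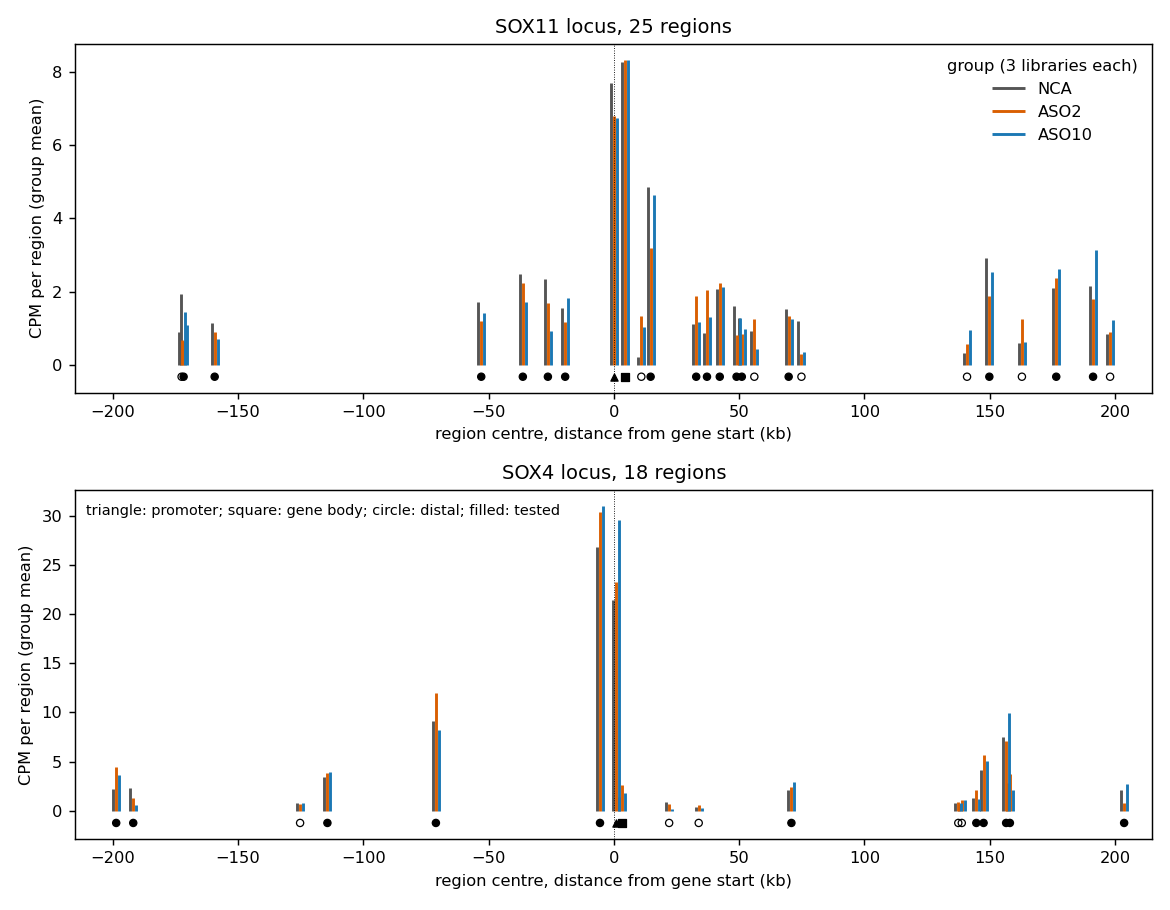
Mean accessibility of each region (vertical axis, CPM) by distance from the gene start (horizontal axis, kb) at SOX11 and SOX4, with lines for NCA, ASO2 and ASO10 set slightly apart and marks below for the kind of region (filled where tested). Levels are highest next to each gene start, with group means up to 31.0 CPM at SOX4 and 8.34 CPM at SOX11.

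None of the 31 tested regions at SOX11 and SOX4 was called in any of the 3 comparisons. Across all tested regions, 5.60% were called between ASO2 and NCA (4.79% higher and 0.808% lower under ASO2), 1.09% between ASO10 and NCA (0.876% and 0.210%), and 3.23% between ASO2 and ASO10 (2.54% and 0.682%). At these shares a set of 31 regions would hold few calls. DESeq2, which gave an adjusted p for 20, 6 and 17 of the 31, called 0 in each comparison, and limma-voom also called 0. Without adjustment, edgeR gave p under 0.05 at 4, 3 and 4 of the 31 regions, against 16.5%, 10.6% and 14.6% of all tested regions. The smallest adjusted p values were 0.0838 for ASO2 against NCA, 0.0639 for ASO10 against NCA and 0.0539 for ASO2 against ASO10. Both comparisons against the control use the same NCA libraries, so their values are given side by side and are not independent.

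The ranges of the libraries also overlapped at most regions. Under ASO2, 3 of 31 regions had every library above every NCA library and 2 had every library below, against 11.9% and 8.57% of all tested regions. Under ASO10 the counts were 2 above and 1 below, against 8.51% and 7.15%. Between ASO2 and ASO10, ASO2 was wholly above at 2 and wholly below at 4, against 11.0% and 8.31%.

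The SOX4 promoter region (chr6:21593451-21595568), which takes in the start of this single-exon gene, was highest under ASO10. Its level was 26.0, 19.2 and 19.2 CPM in the NCA libraries, 26.0, 21.9 and 21.9 CPM under ASO2, and 29.9, 30.8 and 27.9 CPM under ASO10. Every ASO10 library lay above every NCA and every ASO2 library, whereas NCA and ASO2 overlapped. In order of level, NCA had a mean of 21.5 ± 3.96 CPM, ASO2 one of 23.3 ± 2.34 and ASO10 one of 29.5 ± 1.52 (SD, n = 3), and NCA and ASO2 did not differ beyond their spread. The log2 difference of ASO10 from NCA was 0.46 ± 0.14 (SE), with a 95% interval from 0.19 to 0.74 and an adjusted p of 0.0639 in edgeR, which missed the threshold. For ASO2 against NCA it was 0.11, with an interval from -0.16 to 0.39 and an adjusted p of 0.756. The direct difference of ASO2 from ASO10 was -0.35, with an interval from -0.62 to -0.08 and an adjusted p of 0.152. Promoter regions in general were also lower under ASO2 than under ASO10. Over 13180 tested promoter regions the median of this direct difference was -0.15 and 26.2% were positive. Of these regions 83.0% had a value above that of SOX4.

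Whether the ASO10 value passed the threshold turned on the setting. It was called when only regions with at least 10 counts in every library were tested (0.44, adjusted p = 0.0293) and when only NCA and ASO10 libraries entered the edgeR fit (adjusted p = 0.0381). It was also called without NCA replicate 1 (0.62, adjusted p = 0.0365), ASO2 replicate 2 (0.0424) or ASO2 replicate 3 (0.0447). It moved away from the threshold without NCA replicate 2 (adjusted p = 0.336) and with loess offsets that level the groups along abundance (0.36, adjusted p = 0.172). Promoter regions in general also had positive values: over 13180 tested promoter regions the median log2 difference of ASO10 from NCA was 0.09 and 64.1% were positive, and 5.61% of them had a larger value than SOX4. The part of this general difference in the SOX4 value was not tested beyond the loess offsets.

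The SOX11 promoter region (chr2:5692018-5693033) showed no difference that could be told from the spread of the libraries. It stood at 9.28, 6.81 and 7.03 CPM in NCA, 8.70, 4.83 and 6.88 CPM under ASO2, and 6.92, 7.05 and 6.25 CPM under ASO10. The groups overlapped in every pairing. The log2 differences from NCA were -0.19 under ASO2, with an interval from -0.65 to 0.27, and -0.19 under ASO10, with an interval from -0.65 to 0.28. Changes of about 0.65 downwards were thus not excluded by either interval. The gene-body region of SOX11 (chr2:5696037-5697405), 4.3 kb after the start, had nearly equal means of 8.29 ± 1.28, 8.34 ± 0.604 and 8.33 ± 1.14 CPM (SD, n = 3) in NCA, ASO2 and ASO10. Its log2 differences were 0.01 and 0.00, with intervals from -0.42 to 0.43 and from -0.43 to 0.43.

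The gene-body region of SOX4 (chr6:21596902-21597144) was small, at 0.644, 1.51 and 1.93 CPM in NCA, 1.96, 2.25 and 3.58 CPM under ASO2, and 1.88, 1.71 and 1.69 CPM under ASO10. Every ASO2 library lay above every NCA library, the nearest pair being 1.93 and 1.96 CPM. The log2 difference was 0.93 ± 0.51 (SE), with an adjusted p of 0.357 in edgeR, and 0.35 for ASO10, with an adjusted p of 0.869.

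**Figure D2:**
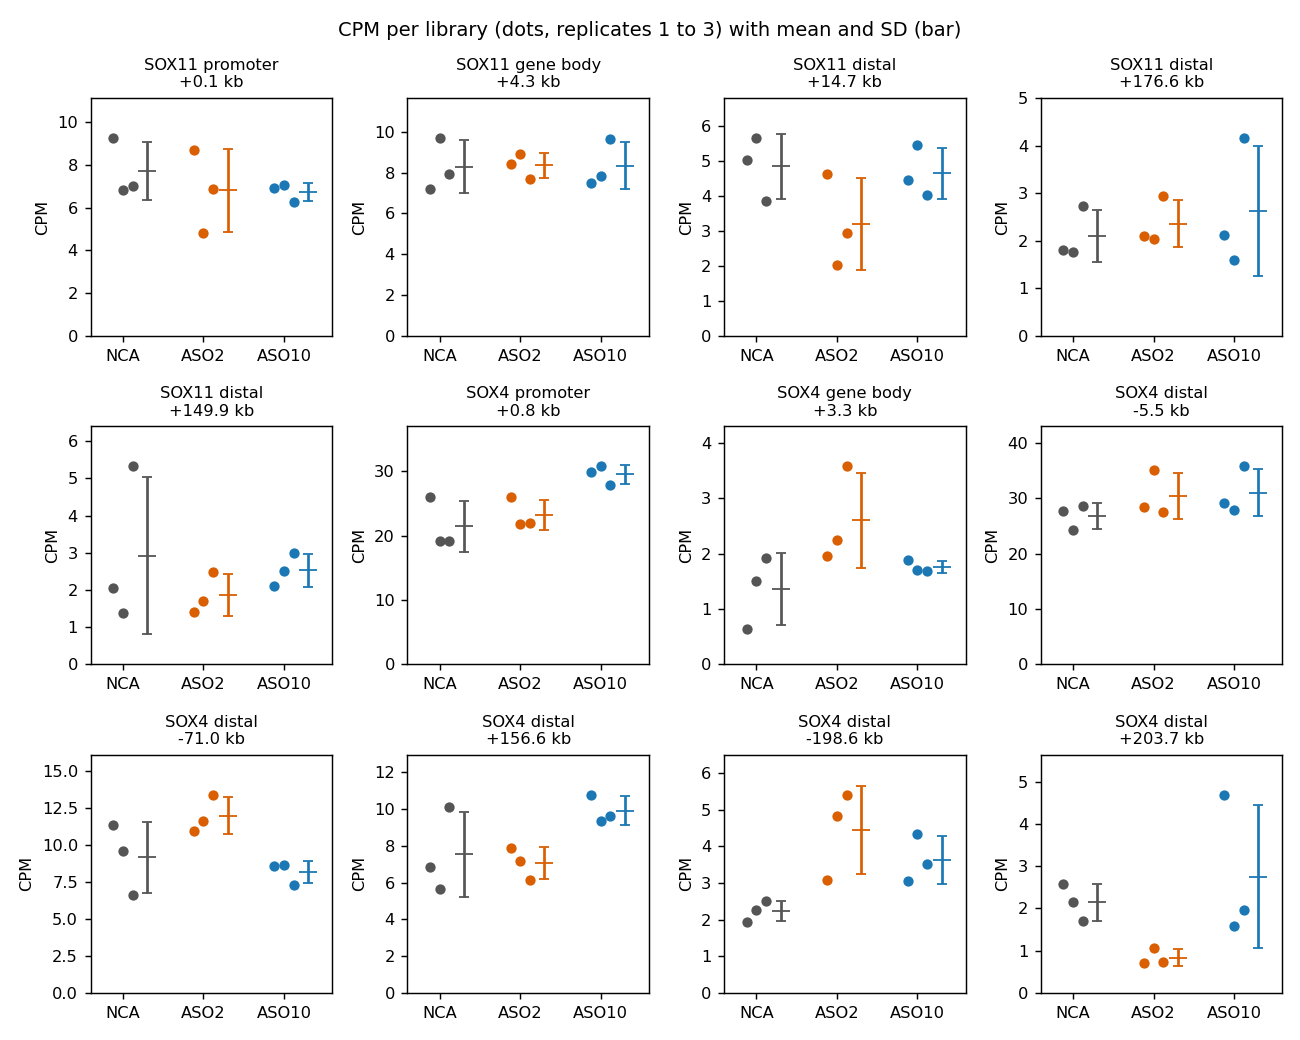
Level (vertical axis, CPM) of the regions named in the text in each library (dots) with the mean and SD of each group of 3 libraries beside them (horizontal axis, NCA, ASO2, ASO10). At the SOX4 promoter the ASO10 points, from 27.9 to 30.8 CPM, lie above all others, and at the SOX11 promoter the groups overlap.

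The distal regions with the highest counts were next examined. The region 5.5 kb before SOX4 had 27.7, 24.2 and 28.6 CPM in NCA, 28.5, 35.1 and 27.4 CPM under ASO2, and 29.2, 27.9 and 35.8 CPM under ASO10. The groups overlapped, and the log2 differences from NCA were 0.18 (interval -0.08 to 0.43) and 0.20 (interval -0.05 to 0.46). The promoter's interval under ASO10, from 0.19 to 0.74, overlapped the one here, and a difference between the promoter and this region was not tested. The region 71.0 kb before SOX4 (chr6:21521730-21523754) had 11.3, 9.58 and 6.58 CPM in NCA, 10.9, 11.6 and 13.4 CPM under ASO2, and 8.56, 8.65 and 7.29 CPM under ASO10. Every ASO2 library lay above every ASO10 library, and the direct log2 difference was 0.56 ± 0.20 (SE), with an adjusted p of 0.107 in edgeR. The NCA range took in all ASO10 libraries, while ASO2 replicates 2 and 3 lay above every NCA library. The log2 difference of ASO2 from NCA was 0.40, with an interval from 0.01 to 0.79 and an adjusted p of 0.285 in edgeR (0.0443 unadjusted), and that of ASO10 was -0.16, with an adjusted p of 0.849.

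The region 156.6 kb after the SOX4 start (chr6:21749800-21750863), inside CASC15, had 6.83, 5.67 and 10.1 CPM in NCA, 7.86, 7.19 and 6.15 CPM under ASO2, and 10.8, 9.33 and 9.64 CPM under ASO10. Here every ASO2 library lay below every ASO10 library, the opposite order to the region at 71.0 kb, with a direct log2 difference of -0.50 ± 0.22 (SE) and an adjusted p of 0.232 in edgeR. Of the 5 tested regions in CASC15, 3 had a positive and 2 a negative log2 difference under either oligonucleotide.

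At SOX11 the distal region with the most counts was 14.7 kb after the start (chr2:5706740-5707493). It had 5.02, 5.67 and 3.86 CPM in NCA, 4.63, 2.04 and 2.94 CPM under ASO2, and 4.46, 5.46 and 4.04 CPM under ASO10. The log2 difference of ASO2 from NCA was -0.62 ± 0.32 (SE), with an adjusted p of 0.312 in edgeR, and that of ASO10 was -0.05. The region at 149.9 kb (chr2:5842011-5842608) held 1 high library, NCA replicate 3 at 5.33 CPM, against 1.39 to 3.0 CPM in the other 8. Without that library its log2 difference of ASO2 from NCA went from -0.64 to 0.14. The region at 176.6 kb (chr2:5868721-5869273) had means of 2.1 ± 0.542, 2.36 ± 0.50 and 2.62 ± 1.36 CPM (SD, n = 3) in NCA, ASO2 and ASO10. The 4 regions in LINC01248, between 19.4 and 52.9 kb before SOX11, all had negative log2 differences under ASO2, and 3 of 4 did under ASO10, with none called.

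Other distal regions are named for their small p-values, and were chosen after their values were seen. The region 198.6 kb before SOX4 (chr6:21394975-21395404) had 1.93, 2.27 and 2.50 CPM in NCA, 3.09, 4.83 and 5.41 CPM under ASO2, and 3.05, 4.32 and 3.52 CPM under ASO10. All 6 libraries that received ASO2 or ASO10 lay above the NCA libraries. The log2 differences were 1.00 ± 0.36 (SE) with an adjusted p of 0.0838 in edgeR under ASO2, and 0.70 ± 0.37 with an adjusted p of 0.508 under ASO10. Its neighbour at 191.8 kb (chr6:21401715-21402286) had 1.80, 3.15 and 1.93 CPM in NCA, 1.82, 0.858 and 1.28 CPM under ASO2, and 0.117, 1.14 and 0.391 CPM under ASO10. Every ASO10 library lay below every NCA library, and ASO2 overlapped both. The log2 difference of ASO10 from NCA was -2.02 ± 0.67 (SE), with an adjusted p of 0.126 in edgeR. That of ASO2 from NCA was -0.80, with an adjusted p of 0.557, and that of ASO2 from ASO10 was 1.22, with an adjusted p of 0.417.

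The region 203.7 kb after the SOX4 start (chr6:21797164-21797676), in CASC15, had 2.58, 2.14 and 1.70 CPM in NCA, 0.702, 1.07 and 0.734 CPM under ASO2, and 4.69, 1.59 and 1.95 CPM under ASO10. Every ASO2 library lay below the rest. The direct log2 difference of ASO2 from ASO10 was -1.69 ± 0.54 (SE), with an adjusted p of 0.0539 in edgeR. That value rested in part on ASO10 replicate 1: without it the log2 difference was -1.06 and the adjusted p 0.559. It passed the threshold without ASO10 replicate 2 (adjusted p = 0.0445) and with only the ASO2 and ASO10 libraries in the fit (adjusted p = 0.0490).

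At SOX11 the regions with an unadjusted p under 0.05 both had lower values than NCA. The region 171.7 kb before the start (chr2:5520561-5520770) had 1.03, 1.89 and 2.84 CPM in NCA, 0.281, 0.858 and 0.826 CPM under ASO2, and 1.06, 1.252 and 0.912 CPM under ASO10. Every ASO2 library lay below the rest. The log2 difference of ASO2 from NCA was -1.50 ± 0.70 (SE), with an adjusted p of 0.237 in edgeR (0.0317 unadjusted), and that of ASO10 was -0.83, with an adjusted p of 0.718. The region 26.3 kb before the start (chr2:5665737-5666392), in LINC01248, had 1.16, 4.41 and 1.48 CPM in NCA, 1.68, 1.72 and 1.65 CPM under ASO2, and 1.99, 0 and 0.781 CPM under ASO10. The groups overlapped, and NCA replicate 2 was the highest library. The log2 difference of ASO10 from NCA was -1.33 ± 0.58 (SE), with an adjusted p of 0.350 in edgeR (0.0223 unadjusted), and that of ASO2 was -0.47, with an adjusted p of 0.733.

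**Figure D3:**
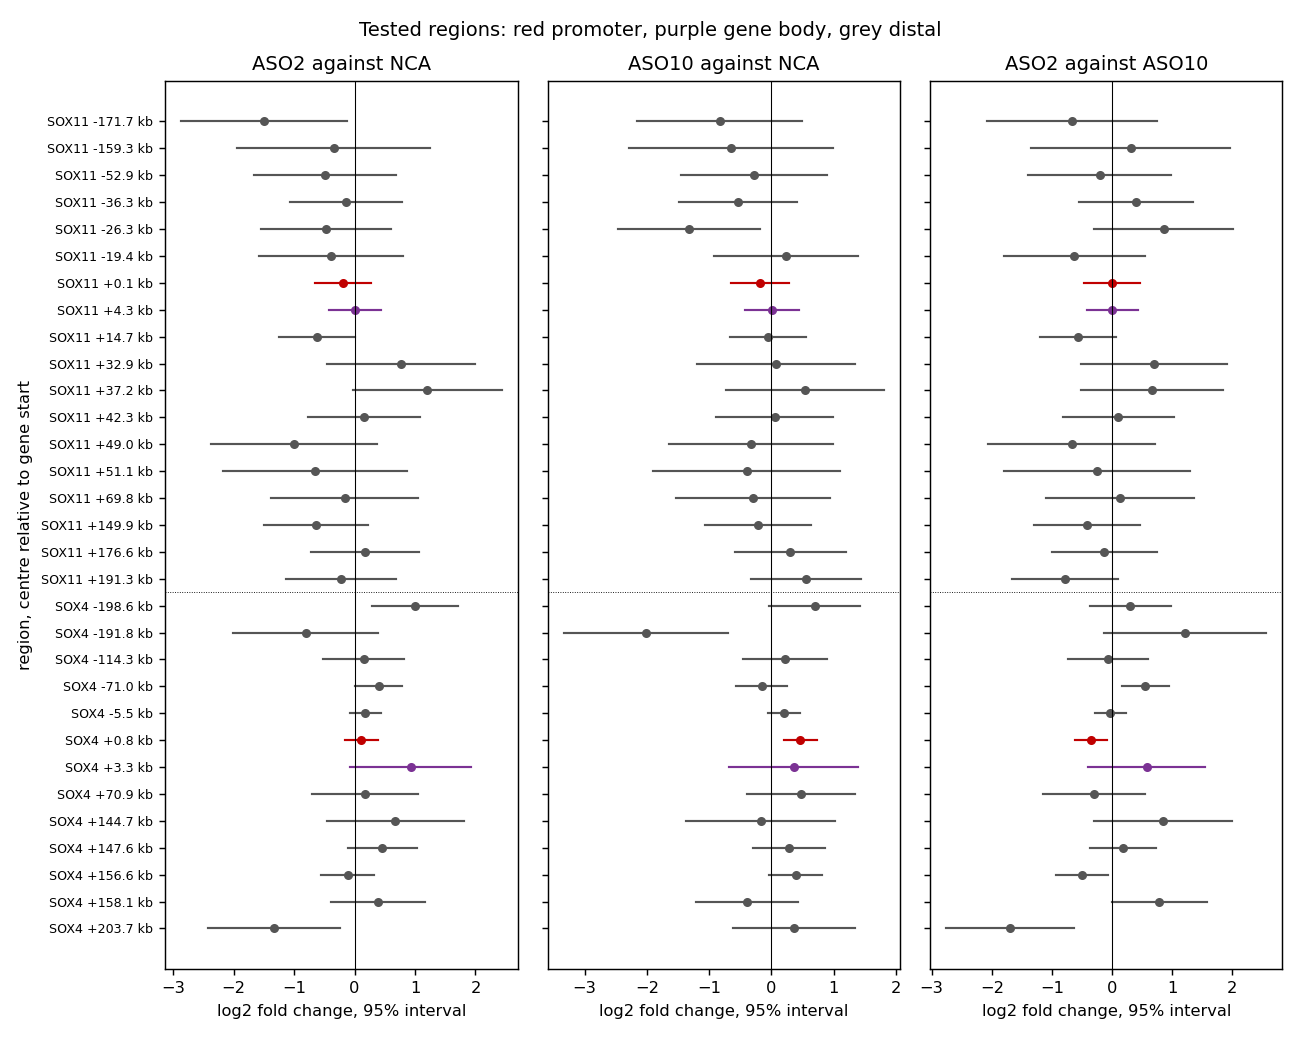
Log2 fold change with its 95% interval (horizontal axis) of each of the 31 tested regions (vertical axis, by position; red promoter, purple gene body, grey distal), for ASO2 and ASO10 against NCA and for ASO2 against ASO10. Most intervals include 0, and they are widest at distal regions with low counts.

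The 12 regions that did not pass the filter, 7 at SOX11 and 5 at SOX4, were all distal and 160 to 281 bases wide. Fitted with no filter, none was called in any comparison, with smallest adjusted p values of 0.0989 for ASO2 and 0.401 for ASO10 against NCA and 0.477 for ASO2 against ASO10. At an unadjusted p of 0.05, edgeR counted 1, 1 and 0 of the 12. The smallest value for both oligonucleotides was at the region 11 kb after the SOX11 start (chr2:5703223-5703459), named after its values were seen. It held 2, 1 and 2 counts in the NCA libraries, 6, 11 and 21 under ASO2, and 5, 8 and 12 under ASO10. Summed over libraries, the depth-scaled ratio to NCA was 6.81 for ASO2 (95% interval 2.68 to 22.2) and 4.90 for ASO10 (1.84 to 16.4). These intervals cover counting error only. Such ratios were taken only where every NCA library held at most 3 counts, a choice that favours high ratios, so they are a description. The other region that met this rule lay 141.0 kb after the SOX11 start (chr2:5833306-5833485). Its ratios were 1.79 (0.724 to 4.84) for ASO2 and 2.94 (1.28 to 7.57) for ASO10, with 19 of the 24 ASO10 counts in replicate 1.

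Over the loci as wholes, the signs of the log2 differences leaned apart. At SOX11, 5 of 18 tested regions were positive under ASO2 and 7 of 18 under ASO10, with medians of -0.29 and -0.21. At SOX4, 10 of 13 were positive under ASO2 and 9 of 13 under ASO10, with medians of 0.18 and 0.28. Over all tested regions 47.9% and 49.4% were positive, with medians of -0.02 and -0.01. Regions of a locus are not replicates, and no test was made of these counts.

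The summed level of the 25 SOX11 regions was 52.7, 52.2 and 52.9 CPM in NCA, 48.7, 41.2 and 52.9 CPM under ASO2, and 48.8, 49.7 and 50.9 CPM under ASO10. All ASO10 sums lay below the NCA sums, while those of ASO2 spread widely. The ratios of the means to NCA were 0.905 for ASO2 and 0.947 for ASO10. The summed level of the 18 SOX4 regions was 95.6, 87.6 and 87.7 CPM in NCA, 104, 107 and 99.3 CPM under ASO2, and 108, 103 and 106 CPM under ASO10. All 6 sums under ASO2 or ASO10 lay above the NCA sums, with ratios of 1.15 and 1.17. Under ASO2 the SOX4 promoter ratio was 1.08 and the ratio of the 16 distal regions together 1.15, and under ASO10 they were 1.38 and 1.10. Much of the SOX4 sum came from few regions. In NCA the promoter held 21.5 and the region 5.5 kb before the start 26.8 of 90.3 CPM. How often the sums of other gene windows separate in this way was not computed. These sums are a description, since the members were chosen with results of these data known.

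**Figure D4:**
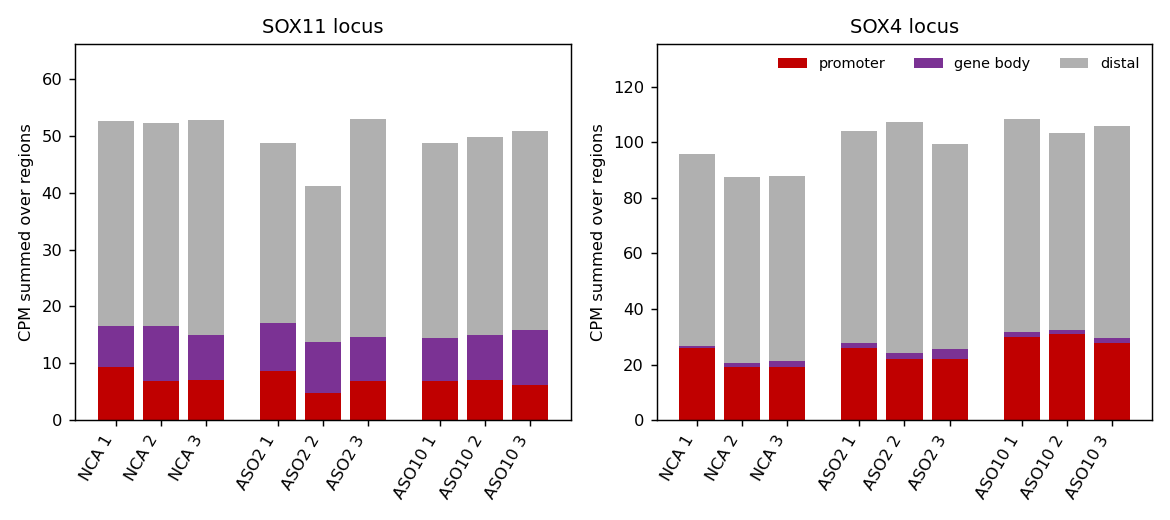
Stacked bars of the summed level (vertical axis, CPM) of the 25 SOX11 and 18 SOX4 regions in each library (horizontal axis), divided into promoter, gene-body and distal regions. At SOX4 the 6 libraries that received ASO2 or ASO10 lie between 99.3 and 108 CPM and the NCA libraries between 87.6 and 95.6 CPM.

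The promoters of related genes were examined by the same fit. Over all 13180 tested promoter regions, 1.56% were called between ASO2 and NCA, 2.18% between ASO10 and NCA and 3.42% between ASO2 and ASO10, and the counts below are to be read against these shares. Of 17 other SOX family genes 14 had a promoter region, none was called, and their levels ran from 3.59 CPM per kb at SOX15 to 21.5 CPM per kb at SOX12, the remaining SOXC member. The median log2 differences over their 17 tested regions were -0.11 under ASO2 and -0.02 under ASO10. Over all tested promoter regions the medians were -0.05 and 0.09. Unadjusted p in edgeR was under 0.05 at 3 of the 17 under ASO2 and 0 under ASO10. Of all tested regions, promoter or not, 16.5% and 10.6% had such a p. Of 14 transcription factors of the adrenergic network or linked to neuroblastoma 13 had a promoter region, EYA1 being the exception. TBX2, a T-box repressor, rose under ASO10, from 21.8 ± 2.45 to 30.5 ± 0.244 CPM (SD, n = 3), with a log2 difference of 0.48 ± 0.14 (SE) and an adjusted p of 0.0456 in edgeR. No gene of the lists, TBX2 included, was called under ASO10 when any of 7 of the 9 libraries was left out. The smallest adjusted p over the lists was then up to 0.334, without NCA replicate 1. With loess offsets no gene of the lists was called under ASO10 either, the smallest adjusted p being 0.146. None of the other 12 was called under either oligonucleotide. At the shares over all promoter regions, lists of this length would hold few calls or none.

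TUBB3 and MAP2, encoding a neuronal tubulin and a microtubule-associated protein, stand for the targets of SOXC factors, since TEAD2 and DCX had no promoter region. The TUBB3 promoter region had a mean of 33.9 ± 1.40 CPM in the controls, 38.3 ± 6.50 CPM with ASO2 and 44.1 ± 2.31 CPM with ASO10 (SD, n = 3). Its log2 difference under ASO10 was 0.38, with an adjusted p of 0.105 in edgeR. The strongest MAP2 promoter region had a log2 difference of 0.36 under ASO10, with an adjusted p of 0.239. MAP2 had 2 tested promoter regions, and the value of the other was lower. Over all tested promoter regions the median log2 difference under ASO10 was 0.09 and 64.1% were positive. Neither gene was called in any comparison.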

How the data were processed

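ATAC-seq was made from 9 libraries of SK-N-BE(2)c, 3 per group. The authors deposited 1 table of whole-number counts per region, with no normalization. The submitters' processing notes name FastQC, Bowtie2 2.2.6, SAMtools, MACS2 2.1.2, DESeq2 1.42.0 and the build GRCh38, with no settings. How Tn5 cut sites were shifted, whether reads or read pairs were counted, and whether peaks were called on pooled libraries is not given in the sources used here. Coordinates are as the region names give them, and whether starts count from 0 or 1 is not stated.

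Counts were tested with edgeR 4.0.16 in R 4.3.3 (TMM factors, filterByExpr by group, robust quasi-likelihood fit over all 3 groups, no covariates), with Benjamini-Hochberg adjustment over 119417 regions. SE was taken as the absolute log2 fold change divided by the square root of F. DESeq2 1.42.0 and limma 3.58.1 (voom) were alternatives. Libraries of a group differed by more than sampling noise (chi-square per degree of freedom from 2.93 to 3.65). Each was taken as 1 replicate, though this excess does not show that they came from separate cultures. A data set of 119417 regions was simulated with log2 changes of 1 between ASO2 and NCA at 200 of them, and 113291 passed the filter. The edgeR script recovered 88.2% of 34 changed regions over 3 log2 CPM, 27.1% of 59 between 1.5 and 3, and 1.87% of 107 under 1.5. It made 2 false calls among 50. Far fewer regions were changed than the 6687 called for ASO2 against NCA in the data. The adjustment was therefore stricter in the simulation. Each simulated region also took its spread from the fitted trend with level, with no scatter of its own. For both reasons these shares need not hold for the data.

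The SOX11 and SOX4 windows, the gene lists and the tests were chosen with earlier results of these data known. Named by rule were the promoter and gene-body regions and the 3 distal regions with the highest mean log2 CPM at each locus. Any called region would also have been named. Other regions were added after their values were seen. At SOX4 these were the regions 198.6 and 191.8 kb before and 203.7 kb after the start. At SOX11 they were those 171.7 and 26.3 kb before and 11 and 141.0 kb after the start. The motifs were added after the SOX4 sequence was seen. Gene positions are from the RefSeq table of GRCh38.p14. Its promoter table gives the strand of SOX4 but has no entry for SOX11, so both ends of SOX11 were taken as possible starts, and 1 region met that rule.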

Additional observations from a re-analysis of the deposited data

How the results depend on the processing

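Of 852 pairs of a result and an alternative, over 49 results, 780 were as in the main analysis, 7 log2 differences became called, 41 changed sign and 24 counts or sums moved. The sign changes touched 15 log2 differences, none called and the largest 0.64 in size. Alternatives for the gene lists and summed levels were added after seeing the data. DESeq2 gave no adjusted p for many low regions, and those entered by sign alone. Low counts limit the distal regions most, and in the simulation recovery was lowest at low levels. Except where a construction is named, the cause of each change was not tested.

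At SOX4 1 region, the promoter, was called under ASO10 with at least 10 counts in every library and with only the groups compared, and leaving out a library gave 0 to 1. Between ASO2 and ASO10, 1 was called with only the groups compared, and leaving out a library gave 0 to 1. At SOX11 the count stayed 0 throughout. In the gene lists, 0 genes were called under ASO2 in the main analysis, 2 with loess offsets and 1 with at least 10 counts. Under ASO10 the main count was 1 (TBX2), 0 with total counts, loess offsets, no filter or the replicate block, 2 with at least 10 counts, and 0 to 1 without a library. Between ASO2 and ASO10 it was 1 with loess offsets and 1 with limma-voom. The summed SOX11 ratio of ASO10 to NCA was 0.919 over tested regions alone, where 7 regions drop out.

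The SOX11 gene-body region, near 0 in every comparison, gave for ASO2 against NCA -0.0083 with total counts, -0.0103 with at least 10 counts, -0.0102 with only the groups compared and -0.0725 with loess offsets. For ASO10 against NCA it gave -0.026, -0.0024 and -0.0200 with total counts, loess offsets and at least 10 counts. For ASO2 against ASO10 it gave -0.0700, -2.5e-05 and -0.0181 with loess offsets, the replicate block and only the groups compared. Leaving out a library gave -0.084 to 0.13, -0.11 to 0.13 and -0.066 to 0.12. The SOX11 promoter region gave 0.0125 for ASO2 against ASO10 with total counts and 0.0061 with at least 10 counts. Leaving out a library gave it -0.20 to 0.19, and -0.38 to 0.0056 for ASO2 against NCA. Between ASO2 and ASO10 the SOX11 region at 176.6 kb gave 0.0165 with limma-voom and the SOX4 region at 5.5 kb gave 0.085 with loess offsets.

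Leaving out a library also changed signs elsewhere. At SOX11, the region at 14.7 kb ranged from -0.19 to 0.070 under ASO10. That at 149.9 kb ranged from -0.97 to 0.14 under ASO2 and -0.56 to 0.55 under ASO10. That at 176.6 kb ranged from -0.027 to 0.41 under ASO2, -0.19 to 0.57 under ASO10 and -0.39 to 0.36 between them. At SOX4, the region at 71.0 kb ranged from -0.35 to 0.021 under ASO10, that at 5.5 kb from -0.15 to 0.089 between ASO2 and ASO10, that at 156.6 kb from -0.28 to 0.17 under ASO2, and that at 203.7 kb from -0.27 to 0.65 under ASO10.

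Deviations of same-numbered libraries from their group means had correlations from -0.11 to 0.06, against -0.05 to 0.10 for differently numbered ones. Such weak correlations show no pairing by number, but cannot exclude that same-numbered libraries were prepared together. With the replicate block, 6310, 983 and 3438 of all tested regions were called, against 6687, 1297 and 3853 without it, and 0 at SOX11 or SOX4.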

Other observations

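Promoter regions were ranked by how closely their log2 CPM followed that of SOX11 or SOX4 over the 9 libraries, which share the 3 groups. Among 9469 candidates for SOX11 the highest Pearson correlations were HYI with 0.88, HLTF with 0.86 and FASTKD1 with 0.86. Among 9468 for SOX4 they were GABARAP, an autophagy protein, with 0.98, the transcription factor ADNP with 0.95 and RTL6 with 0.95. The GABARAP promoter region had means of 10.1, 10.6 and 13.8 CPM in NCA, ASO2 and ASO10. These are the highest of many values over few libraries, given as a description.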
